A study of Mus musculus with 12 samples.

Results

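The 3 TGF-β ligands (Tgfb1, Tgfb2, Tgfb3), the 3 TGF-β receptors (Tgfbr1, Tgfbr2, Tgfbr3) and the 4 latent TGF-β binding proteins (Ltbp1, Ltbp2, Ltbp3, Ltbp4) were followed through the cell types and fibroblast subsets of the mouse mammary gland. They were taken by symbol from single-cell count matrices, where the 10 symbols stand on 11 of 27998 gene entries. The second Ltbp4 entry held 0 UMIs and was not used. In the gated cells, UMI totals ran from 857 for Ltbp2 to 273668 for Tgfbr2. The ligands drew 44039 (Tgfb1), 40887 (Tgfb2) and 10425 (Tgfb3) UMIs.

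The study produced 12 libraries of the fourth mammary gland of C57BL/6J mice at 43 weeks of age, 1 library for each treatment. Menopause was modelled with 4-vinylcyclohexene diepoxide (VCD), which destroys ovarian follicles and was injected intraperitoneally at 160 mg/kg/day for 15 days. A library labelled Intact came from mice without VCD, and all other groups received it. The hormone treatments lasted 1 week and were sesame oil vehicle, estradiol (E2, 1 µg per animal per day) or E2 with progesterone (P4, 1 mg per animal per day).

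Each of these was combined with food holding no polybrominated diphenyl ethers (PBDEs), a low dose (PBDE-47 at 0.05 mg/kg/day for 20 weeks) or a high dose (PBDE-47 at 1 mg/kg/day for 1 week), with DMSO in the food of mice that got none. This gives 9 crossed libraries. The 3 without hormone were VCD_Vehicle, VCD_Low_PBDE and VCD_High_PBDE. The 6 with E2 were VCD_E2, VCD_Low_E2 and VCD_High_PBDE_E2, and with P4 added VCD_E2_P4, VCD_Low_E2_P4 and VCD_High_PBDE_E2_P4. Outside the crossing stood Intact, a further vehicle library labelled VCD_Vehicle_NormEnv, and VCD_E2_ICI, in which E2 was given with 1 injection of 5 mg of ICI, an estrogen receptor degrader. Lymph nodes were dissected away, and dead cells and, with the larger cells, nearly all mature adipocytes were taken out during preparation, so the cell mixture is not that of the intact gland. Since no treatment has a second library, the tests of E2 and P4 use the spread that remains after hormone and PBDE terms in the 9 crossed libraries, with 4 residual degrees of freedom. Intact, VCD_Vehicle_NormEnv and VCD_E2_ICI are given as values beside the members that passed those tests and enter the comparisons between cell populations, which use 12 libraries.

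TGF-β is secreted as an inactive dimer held by its own propeptide, which is bound in turn by a latent TGF-β binding protein that fastens it to fibrillin and fibronectin fibers of the matrix. Integrins, thrombospondin and proteases release it. The active ligand joins a type II receptor (Tgfbr2) to a type I receptor (Tgfbr1), whose kinase phosphorylates Smad2 and Smad3, while betaglycan (Tgfbr3) presents ligand and is needed most for TGF-β2. In the mammary gland the pathway is known as a brake on ductal growth and as an inducer of matrix genes in fibroblasts.

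After the study's limits on cell quality (at least 500 genes, 1000 UMIs and at most 5% mitochondrial counts), 46257 of 58620 barcodes remained, 1996 to 7570 per library, with a median of 11843 to 20446 UMIs per cell. Cells were assigned by 6 markers per type, none of them a member, and 43893 received a type, while 2364 (5.11%) stayed without one and are in no population below. Of the typed cells 38075 were fibroblasts, and 32591 of these fell into 4 subsets named by a marker: Dpp4 (15155 cells), Fabp4 (12170), Gdf10 (2980) and Tnc (2286). As an alternative, cells were clustered and the clusters named from the same markers. Of the gated cells 10612 (Dpp4), 9229 (Fabp4), 2623 (Gdf10) and 2008 (Tnc) fell in a cluster of the same name. Clusters without a name took 4374 of the gated Dpp4 and 2147 of the gated Fabp4 fibroblasts. Subset markers included genes that the study names for its fibroblast clusters, such as Dpp4, Pi16, Fabp4, Tnc and Gdf10. Those clusters were found partly in these libraries, so differences between subsets are not independent of that clustering. All 6 markers of each list were detected in their own population, except Lep and Plin1 in the single adipocyte. Pi16 for example stood at 3650 counts per 1000000 UMIs (CPM) in Dpp4 fibroblasts and at 59.8 to 151 CPM in the other subsets. The largest other groups were 2364 T cells, 1472 macrophages and 600 NK cells. The cells gated as B were led by the plasma cell genes Jchain and Mzb1. Only 109 endothelial, 47 pericyte and 17 basal epithelial cells were found, and 1 adipocyte. Libraries shared 274 barcodes, at most 0.393% of the smaller library of any pair. One library stood apart, VCD_Low_E2_P4, which held 88 of 117 skeletal muscle cells and the lowest median of UMIs per cell. It also held 8 of 17 basal epithelial cells, 26 of 109 endothelial cells and 57 of 186 cells gated as B. The E2 calls of members in subsets are given with and without it, while levels include it.

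The ligands were highest in different populations, and endothelial cells held all 3. Tgfb1 (chr7:25687002-25705077, + strand, GRCm38), a regulator of immune cells, was highest in macrophages and T, NK and dendritic cells. Tgfb2 (chr1:186622792-186705989, − strand) was highest in Dpp4 fibroblasts and endothelium. Tgfb3 (chr12:86056745-86079041, − strand) was highest in endothelial, pericyte, luminal, basal and Tnc fibroblast cells. Here and below a level is CPM over the summed UMIs of a population in a library, as mean ± SD over the libraries with at least 10 such cells (n = 12 unless given), or pooled over libraries with an exact 95% Poisson interval where cells were few. Such intervals cover counting error only. Neighbors in the order of levels were compared with an exact paired permutation test over libraries, two-sided and adjusted over 87 pairs of all members, of which 17 passed. Steps over 6 or 7 libraries, as with B or luminal cells, could not pass. Their lowest possible p in this test was 0.03125 or 0.015625 (adjusted p = 0.0906 or 0.0610).

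Tgfb1 stood at 438 ± 66.1 CPM in macrophages (lowest 337, median 421, highest 571). T cells had 390 ± 72.8 CPM, NK cells 341 ± 54.5 and dendritic cells 326 ± 62.6 (n = 11). None of the 3 steps between neighbors in this order passed the test, and the ends of the order were not compared (adjusted exact permutation p = 0.193, 0.193 and 0.407). Fibroblasts were far lower. Fabp4 fibroblasts held 56.7 ± 7.92 CPM and Tnc fibroblasts 48.0 ± 8.33, which were not told apart (adjusted p = 0.0752), whereas Tnc exceeded Gdf10 fibroblasts at 26.0 ± 6.12 (adjusted p = 0.00654). Dpp4 fibroblasts were lowest at 21.9 ± 4.67 CPM (adjusted p = 0.0610 against Gdf10). Pooled mast cells held 277 CPM (233 to 328) and pooled endothelial cells 261 CPM (237 to 286). Not all leukocytes were high, since neutrophils held 125 CPM (101 to 152) and the cells gated as B 86.9 CPM (77.3 to 97.4), both below endothelial cells.

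Tgfb2 was highest among fibroblasts in the Dpp4 subset. Dpp4 fibroblasts held 102 ± 21.3 CPM (lowest 71.3, median 103, highest 132), above Gdf10 fibroblasts at 39.8 ± 14.5 in 12 of 12 libraries (adjusted exact permutation p = 0.00425). Gdf10 exceeded Fabp4 fibroblasts at 27 ± 6.91 (adjusted p = 0.0150), and Tnc fibroblasts had 17.0 ± 8.32. Endothelial cells, pooled, reached 153 CPM (135 to 173). In macrophages the pooled level was 1.37 CPM, and 1.21 CPM would be there if free fibroblast RNA gave Tgfb2 in the same ratio as the collagen-binding proteoglycan gene Dcn, so the macrophage value was read as background. Neutrophils had 0 UMIs of Tgfb2, which allows up to 3.81 CPM. Here and below, such a limit for 0 UMIs is the level that 3 counts would give, not a Poisson interval.

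Tgfb3 was the least sampled ligand. Luminal epithelial cells held 32.0 ± 13.3 CPM (n = 7), Tnc fibroblasts 25.6 ± 8.10 and Gdf10 fibroblasts 20.7 ± 3.70, and Gdf10 exceeded Dpp4 fibroblasts at 14.3 ± 1.91 (adjusted exact permutation p = 0.00425). Fabp4 fibroblasts had 13.0 ± 2.37 CPM and NK cells 4.54 CPM. Macrophages (1.93 CPM), T cells (1.44) and dendritic cells (0.758, n = 11) were lower still. Pooled endothelial cells had 50.7 CPM (40.6 to 62.6) and pericytes 54.4 CPM, the latter from 8 UMIs. The few basal epithelial cells held 26.2 CPM when pooled. No UMI fell in neutrophils or mast cells, which allows up to 3.81 and 6.07 CPM.

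**Figure D1:**
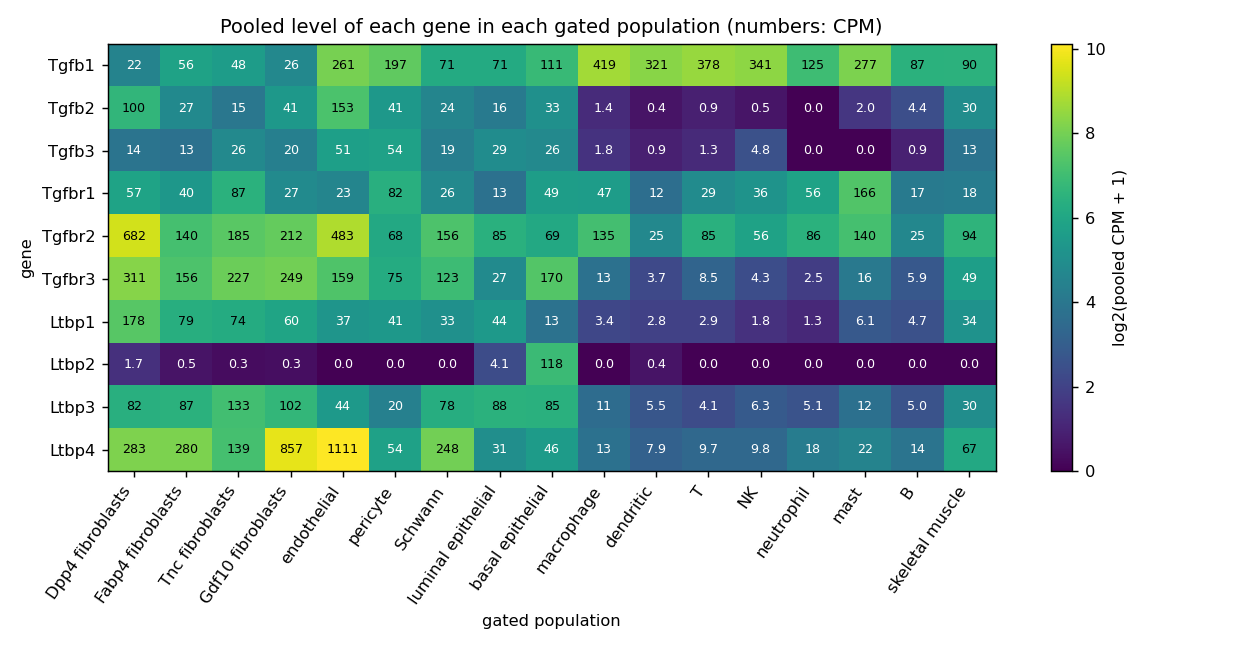
Heat map of the 10 genes (rows) in 17 gated populations (columns), with color giving log2(pooled CPM + 1). Tgfb1 is brightest in macrophages and T cells, while Tgfb2, Tgfbr2 and Ltbp1 are brightest in Dpp4 fibroblasts or endothelial cells, and Ltbp2 is brightest in basal epithelial cells (118 CPM), followed by luminal epithelial cells (4.06 CPM).

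Across the 11 populations with at least 10 cells in 6 or more libraries, the mean log levels of Tgfb1 and Tgfb2 had Pearson r = -0.88, and those of Tgfb2 and Ltbp1 r = 0.98. Endothelial cells and pericytes had too few cells to enter, and endothelial cells, with 261 CPM of Tgfb1 and 153 CPM of Tgfb2, were high in both, as pericytes were less markedly (197 and 40.8 CPM, the latter from 6 UMIs). These are descriptions over populations that share their libraries, and leukocytes and fibroblast subsets make up most of them. In the leukocytes mean Tgfb2 was at most 5.27 CPM and mean Ltbp1 at most 4.52 CPM, both in the cells gated as B. Among 9241 genes compared in this way, the closest to Tgfb1 were Hnrnpf (0.958), Epsti1 (0.956) and Cenpa (0.953). The closest to Tgfb2 were Nhsl1 (0.987), Ltbp1 (0.979) and Dmpk (0.978), and the closest to Tgfb3 were Wbscr27 (0.982), Adgra3 and Mfge8 (both 0.973).

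Of the receptors, Tgfbr2 (chr9:116084293-116175360, − strand), the ligand-binding kinase, was read in every population. Its level was 689 ± 76.2 CPM in Dpp4 fibroblasts (lowest 541, median 677, highest 842) and 209 ± 48.4 in Gdf10, 185 ± 38.6 in Tnc and 140 ± 27.4 in Fabp4 fibroblasts. Dpp4 exceeded Gdf10 (adjusted exact permutation p = 0.00425) and Tnc exceeded Fabp4 fibroblasts (0.00654). Macrophages, at 129 ± 25.2 CPM, lay above T cells at 83.7 (0.00425). Pooled endothelial cells held 483 CPM (450 to 517).

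Tgfbr1 (chr4:47353222-47414931, + strand), the signaling kinase, was highest among fibroblasts in the Tnc subset at 86.4 ± 15.7 CPM, above Dpp4 fibroblasts at 57.9 ± 15.4 (adjusted exact permutation p = 0.00425). Macrophages held 49.5 ± 18.8, Fabp4 fibroblasts 40.8 ± 4.26 and Gdf10 fibroblasts 28.9 ± 8.06. Mast cells reached 166 CPM when pooled (132 to 206), from 82 UMIs in 98 cells. Tgfbr3 (chr5:107106570-107289629, − strand), the co-receptor betaglycan, was low in leukocytes. Its order among fibroblasts was Dpp4 (312 ± 23.3 CPM), Gdf10 (256 ± 34.5), Tnc (225 ± 41.5) and Fabp4 (159 ± 17.7), and the first and last steps passed the test (adjusted p = 0.00910 and 0.00425). Macrophages had 12.5 CPM, against 4.85 CPM from free fibroblast RNA by the Dcn ratio.

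The binding proteins are matrix genes, and leukocytes had little of them. Ltbp1 (chr17:75005568-75392512, + strand), which stores latent TGF-β on fibronectin and fibrillin, stood at 181 ± 16.1 CPM in Dpp4 fibroblasts (lowest 157, median 177, highest 209). The 3 other subsets held 81.2 ± 8.26 (Fabp4), 74.0 ± 17.2 (Tnc) and 61.1 ± 7.77 CPM (Gdf10), and neither step between these neighbors passed (adjusted exact permutation p = 0.197 and 0.0787). Dpp4 exceeded Fabp4 fibroblasts by 1.15 on the log2(CPM + 1) scale (adjusted exact permutation p = 0.00425). Ltbp4 (chr7:27305136-27337692, − strand), needed also for elastic fibers, was led by Gdf10 fibroblasts at 876 ± 93.3 CPM (lowest 671, median 881, highest 994). Dpp4 (289 ± 64.4) and Fabp4 fibroblasts (282 ± 30.4) were not told apart (adjusted p = 0.963), and Tnc fibroblasts were lowest at 141 ± 44.3. Pooled endothelial cells reached 1111 CPM (1062 to 1162).

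Ltbp3 (chr19:5740904-5758532, + strand), a carrier of latent TGF-β with a role in bone and tooth, varied least among fibroblasts, from 131 ± 17.5 CPM in Tnc to 102 ± 8.74 in Gdf10, 87.1 ± 13.6 in Fabp4 and 82.5 ± 4.66 in Dpp4 fibroblasts. The steps from Tnc to Gdf10 and from Gdf10 to Fabp4 passed the test (adjusted exact permutation p = 0.00654 and 0.0133). Luminal epithelial cells had 79.6 ± 30.8 CPM (n = 7). Ltbp2 (chr12:84783212-84876532, − strand), a relative that binds fibrillin but not latent TGF-β, was low in fibroblasts, with 1.56 ± 0.843 CPM in the Dpp4 subset and at most 0.41 CPM in the others. In 17 basal epithelial cells it reached 118 CPM (82.6 to 163, from 36 UMIs). Of these UMIs 16 came from VCD_Low_E2_P4 and 13 from 1 cell of VCD_Vehicle. Luminal epithelial cells held 4.06 CPM when pooled (2.57 to 6.09, from 23 UMIs), against 0.0944 CPM from free fibroblast RNA by the Dcn ratio. No Ltbp2 UMI was found in 1472 macrophages or 2364 T cells, which allows up to 0.164 and 0.160 CPM.

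Shares of cells with a UMI depend on depth, so each cell was also thinned to 5000 UMIs. Tgfb1 was then seen in 83.4% of macrophages and 8.80% of Dpp4 fibroblasts (89.3% and 25% before thinning). Tgfb2 was seen in 34.5% of Dpp4 fibroblasts and 10.5% of Fabp4 fibroblasts, and in 0.358% of T cells, a type that should lack it. The median depths before thinning were 18912, 16404.5 and 5609 UMIs in these 3 populations. Ltbp4 was seen in 92.7% of Gdf10 and 43.0% of Tnc fibroblasts, with 4.87% in T cells. Shallower cells were left out, 1070 Dpp4, 758 Fabp4, 439 Gdf10 and 151 Tnc fibroblasts, 222 macrophages and 969 T cells.

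The 4 fibroblast subsets were then tested against one another across all genes, each subset against the mean of the other 3 in 12 libraries, with library as a block. In Dpp4 fibroblasts 9 of 10 members passed, 6 higher and 3 lower, where 68.3% of all genes passed (32.4% higher and 35.9% lower). In Fabp4 fibroblasts 9 passed (1 higher, 8 lower, against 55.1% of all genes, 28.2% higher and 26.9% lower), in Tnc fibroblasts 9 (4 higher, 5 lower, against 58.2%, 30.6% higher and 27.6% lower) and in Gdf10 fibroblasts 8 (4 higher, 4 lower, against 50.6%, 24.5% higher and 26% lower). The median log2 fold change of the members was 0.46, -0.31, -0.32 and -0.04 in that order, and that of all genes lay within 0.03 of 0. Since most genes passed in this comparison, the counts say little about the members, and the sizes are the useful part.

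Tgfb2 (log2 fold change 2.04, SE 0.14, adjusted p = 4e-16), Tgfbr2 (2.01, SE 0.06, adjusted p = 1.44e-27) and Ltbp1 (1.36, SE 0.05, adjusted p = 3.09e-25) were the members that marked Dpp4 fibroblasts. Ltbp2 was also higher there (2.38, SE 0.37), at a level of few UMIs. In VCD_Vehicle (0.422 against 1.43 CPM) and VCD_Low_PBDE (0.444 against 0.675 CPM) its level in Dpp4 fibroblasts lay under that in Fabp4 fibroblasts. Tgfb1 was lower in Dpp4 fibroblasts (-0.91, SE 0.07). Ltbp4 did not pass in Dpp4 fibroblasts (-0.17, adjusted p = 0.0888). Fabp4 fibroblasts had Tgfb1 as their only higher member (0.90, SE 0.07, adjusted p = 1.08e-14), with Tgfbr2 lowest against the rest (-1.12). Tnc fibroblasts had higher Tgfbr1 (1.00, SE 0.06), Tgfb3 (0.63), Tgfb1 (0.51) and Ltbp3 (0.45) and lower Ltbp4 (-1.68, SE 0.10) and Tgfb2 (-1.68). Gdf10 fibroblasts had higher Ltbp4 (2.06, SE 0.08, adjusted p = 1.07e-22) and lower Tgfbr1 (-0.96).

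Few of these calls hung on a setting. Ltbp4 in Fabp4 fibroblasts (-0.22, adjusted p = 0.0333) failed under 4 other settings (adjusted p of 0.0572 to 0.219) and without each of Intact, VCD_Vehicle, VCD_Low_PBDE, VCD_Vehicle_NormEnv, VCD_High_PBDE or VCD_E2_ICI (adjusted p of 0.0546 to 0.0814). Ltbp3 in Gdf10 fibroblasts (0.16) failed with clusters in place of the gate (adjusted p = 0.0584). Tgfbr3 in Tnc fibroblasts (-0.15, adjusted p = 0.0185) failed without VCD_E2_P4 (0.0641) or without VCD_Low_E2_P4 (0.0507).

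**Figure D2:**
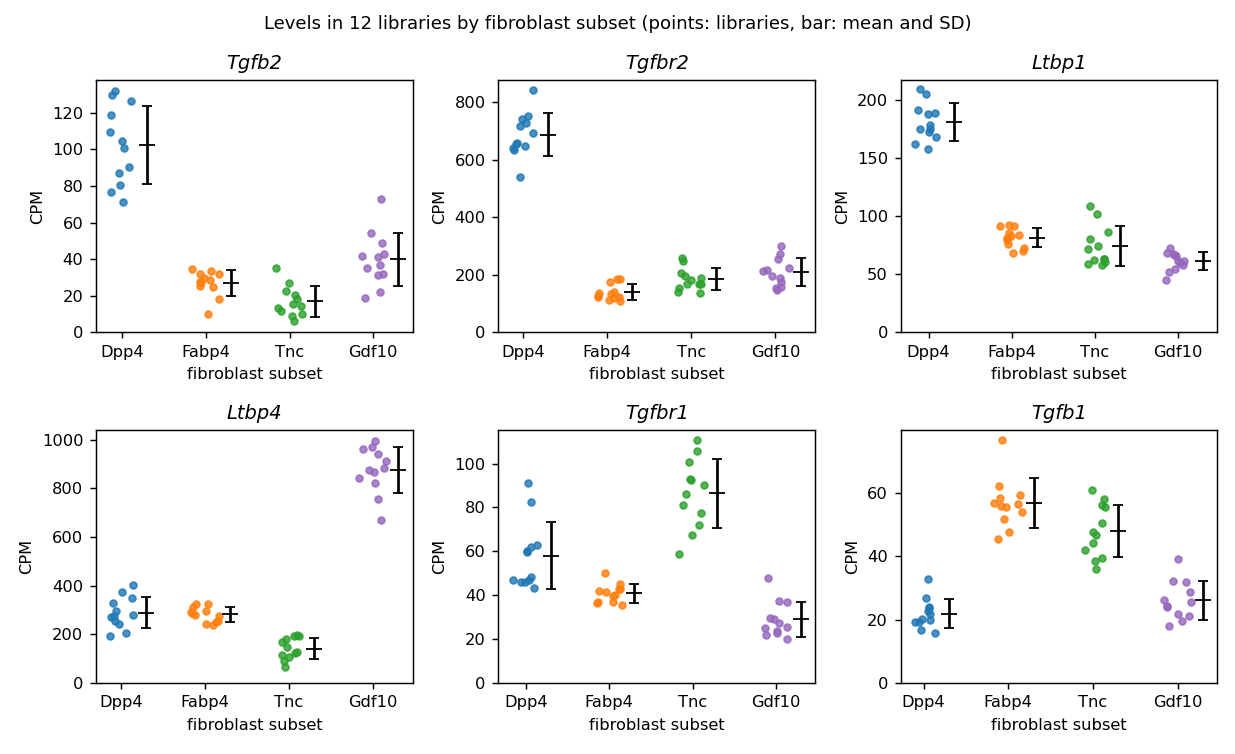
Level in CPM (vertical axis, linear) of Tgfb2, Tgfbr2, Ltbp1, Ltbp4, Tgfbr1 and Tgfb1 in the 4 fibroblast subsets, with 1 point per library (12 per subset) and the mean and SD. Every Dpp4 point for Ltbp1 (157 CPM and above) lies above all points of the other subsets (at most 109 CPM), and every Gdf10 point for Ltbp4 (671 CPM and above) lies above all others (at most 404 CPM).

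Tgfb2, Tgfbr2 and Ltbp1 were highest in the same subset, so the 250 bases before their transcription start are shown, from RefSeq on GRCm38.p6, 5′ to 3′ on the strand of the gene. Capitals mark matches to motifs searched on both strands: the TATA box TATAAA, the cAMP response element TGACGTCA, the E-box CACGTG and the CCAAT box (CCAAT or its complement ATTGG).
Tgfb2, chr1:186705990-186706239, − strand: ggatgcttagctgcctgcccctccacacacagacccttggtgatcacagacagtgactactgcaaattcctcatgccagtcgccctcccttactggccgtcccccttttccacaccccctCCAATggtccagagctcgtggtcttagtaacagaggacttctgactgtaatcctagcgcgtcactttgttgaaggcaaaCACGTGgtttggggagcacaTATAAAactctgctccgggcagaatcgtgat
Tgfbr2, chr9:116175364-116175613, − strand: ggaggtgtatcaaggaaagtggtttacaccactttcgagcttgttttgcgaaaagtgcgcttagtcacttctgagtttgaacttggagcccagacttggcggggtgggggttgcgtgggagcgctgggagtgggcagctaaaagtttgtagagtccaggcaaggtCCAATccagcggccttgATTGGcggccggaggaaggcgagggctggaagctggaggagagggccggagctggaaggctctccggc
Ltbp1, chr17:75005279-75005528, + strand: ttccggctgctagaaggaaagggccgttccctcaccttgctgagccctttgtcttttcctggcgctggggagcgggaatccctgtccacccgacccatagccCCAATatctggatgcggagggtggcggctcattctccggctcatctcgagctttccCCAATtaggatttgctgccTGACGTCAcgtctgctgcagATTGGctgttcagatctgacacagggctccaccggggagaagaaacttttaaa

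RefSeq gives Ltbp1 a second start, whose window (chr17:75178531-75178780, not shown) holds none of these motifs. The 3 windows shown hold a CCAAT box, 1 in Tgfb2, 2 in Tgfbr2 and 3 in Ltbp1, as do 37.4% of 32851 windows of 300 bases (250 before to 50 after a start). Tgfb2 alone of the 3 shown holds the TATA box (13.6% of all windows) and the E-box (7.15%), and Ltbp1 alone the cAMP response element (1.79%). RefSeq windows were found for 8 of the 10 members, and none of their 12 windows holds AGGTCA, the core of an estrogen response element (16.3% of all windows), or the full palindromic element (0.0700%). These are matches of letters in short windows and say nothing about binding of a factor.

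With estradiol, Tgfbr1 and Tgfb3 were lower in Dpp4 fibroblasts, Ltbp4 and Tgfbr1 lower in Tnc fibroblasts, and Tgfb2 higher in Gdf10 fibroblasts, while the other members did not pass the test. The comparison set the 6 libraries with E2, with or without P4, against the 3 without hormone. In Dpp4 fibroblasts 2 of 10 members passed, where 13.2% of 14127 genes passed. In Tnc fibroblasts 2 of 9 tested passed against 30.3% of all genes, and in Gdf10 fibroblasts 1 of 9 against 2.41%. In Fabp4 fibroblasts 0 of 10 passed by edgeR (17.4% of all genes) and 0 by DESeq2. There 2 of 10 had an unadjusted edgeR p under 0.05, as had 4635 of 13657 genes. In macrophages 0 of 6 passed by edgeR (0.122% of all genes) and 0 by DESeq2. There 2 of 6 had an unadjusted edgeR p under 0.05, as had 939 of 9046 genes. Of the shares that passed, only that in Gdf10 fibroblasts stood well above its background, and that on 1 gene.

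Tgfbr1 decreased in Dpp4 fibroblasts. Without hormone it stood at 62.1 CPM in VCD_Vehicle, 91.3 in VCD_Low_PBDE and 82.4 in VCD_High_PBDE. With E2 it was 45.8 (VCD_E2), 48.3 (VCD_Low_E2) and 46.8 CPM (VCD_High_PBDE_E2), and with P4 added 43.5, 45.9 and 46.8 CPM at no, low and high PBDE. The groups did not overlap, and the 6 E2 libraries lay within 5 CPM of each other. The log2 fold change was -0.80 (SE 0.10, adjusted p = 0.00743), and it was -0.47, -0.94 and -0.80 within no, low and high PBDE. Intact held 62.7 CPM (59.1 to 66.6) and VCD_Vehicle_NormEnv 59.8 CPM. VCD_E2_ICI, where the receptor degrader accompanied E2, held 60.0 CPM (55.8 to 64.3). The call held under all 10 other settings and without each of the 9 libraries (-0.95 to -0.65), and without VCD_Low_E2_P4 it was -0.74 (adjusted p = 0.0255).

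Tgfb3 in Dpp4 fibroblasts moved less. It was 17.0, 15.3 and 16.8 CPM in the libraries without hormone (no, low and high PBDE), 11.5, 12.9 and 13.3 CPM with E2 and 12.9, 11.6 and 14.2 CPM with E2 and P4. The groups did not overlap, by a gap of about 1 CPM, and VCD_Vehicle_NormEnv, at 14.7 CPM, lay inside that gap. The log2 fold change was -0.41 (SE 0.08, adjusted p = 0.0247). Intact stood at 14.9 CPM and VCD_E2_ICI at 16.5 CPM (14.4 to 18.9). The call failed without VCD_Vehicle (adjusted p = 0.0861), VCD_E2 (0.0533), VCD_Low_PBDE (0.129), VCD_Low_E2_P4 (0.0573) or VCD_High_PBDE_E2_P4 (0.0540), at log2 fold changes of -0.42 to -0.35, and with the code in the library names as a term (0.129).

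Gate markers moved with the hormone in Dpp4 fibroblasts as well. Of their own 6 markers, 2 were lower with E2, and the summed level of the list was 7883 to 10175 CPM without hormone and 6271 to 8182 CPM with E2. The summed Fabp4 subset markers were 338 to 473 and 486 to 691 CPM, and the Gdf10 subset markers 146 to 253 and 272 to 425 CPM, both without overlap. All 6 markers of each of these lists were detected. The summed markers of each of the other 14 cell types overlapped between the groups. The part of these shifts in the change of Tgfbr1 and Tgfb3 was not tested.

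Ltbp4 in Tnc fibroblasts had the largest decrease among the members that passed. The 3 libraries without hormone held 191, 194 and 178 CPM. Those with E2 held 113, 121 and 89.96 CPM at no, low and high PBDE, and those with E2 and P4 63.4, 125 and 107 CPM. All 6 E2 libraries lay below all 3 others. The log2 fold change was -1.0 (SE 0.17, adjusted p = 0.00162), and it was -1.10, -0.65 and -0.85 within no, low and high PBDE. VCD_E2_ICI, at 195 CPM (176 to 216), lay with the libraries without hormone, VCD_Vehicle_NormEnv had 168 CPM, and Intact was between at 146 CPM (134 to 159). The call held under all 10 other settings and without each of 9 libraries, and without VCD_Low_E2_P4 it was -1.07 (adjusted p = 0.00274).

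Tgfbr1 also decreased in Tnc fibroblasts. It was 93.1, 101 and 106 CPM without hormone, 81.2, 67.7 and 111 CPM with E2 and 72.2, 58.8 and 77.5 CPM with E2 and P4. The groups overlapped through VCD_High_PBDE_E2. Intact (90.4 CPM), VCD_E2_ICI (92.5) and VCD_Vehicle_NormEnv (86.2) all lay below the 3 libraries without hormone and inside the range of the E2 libraries. The log2 fold change was -0.51 (SE 0.12, adjusted p = 0.00943), and it was -0.28, -0.66 and -0.17 within no, low and high PBDE. The call failed without VCD_Low_PBDE (-0.36, adjusted p = 0.0912) and with the code in the library names as a term (-0.35, adjusted p = 0.104). Without VCD_Low_E2_P4 it was -0.48 (adjusted p = 0.0332).

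Tnc fibroblasts were also the subset whose gate markers moved most. Of their own 6 markers 3 were lower and 1 higher with E2, and the summed list was 3550 to 3715 CPM without hormone and 2222 to 2732 CPM with it. The 6 general fibroblast markers summed to 35791 to 39494 and 16892 to 28897 CPM, again without overlap, and 5 of the 6 Dpp4 subset markers were lower. All markers of these lists were detected. Of the lists for other cell types, the endothelial markers summed to 8.47 to 17.6 CPM without hormone and 0.696 to 5.8 CPM with it, and the pericyte markers to 60.6 to 67.9 and 14.6 to 24.8 CPM. The dendritic markers went the other way, at 4.41 to 6.49 and 13.3 to 41.1 CPM. The adipocyte markers were at 4.06 to 7.06 and 0 to 2.44 CPM, with 2 of 6 at 0. Of the pericyte markers 1 of 6 was at 0, and of the endothelial and dendritic markers none. The part of these shifts in the changes of Ltbp4 and Tgfbr1 was not tested. Tgfbr2 and Ltbp3 did not overlap between the groups in Tnc fibroblasts, at 137 to 169 against 181 to 260 CPM and at 105 to 122 against 139 to 161 CPM, but neither passed (adjusted p = 0.0591 and 0.107).

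In Gdf10 fibroblasts Tgfb2 increased. It was 22.1, 19.0 and 31.8 CPM without hormone, 41.4, 31.3 and 49.1 CPM with E2 and 54.3, 72.8 and 43.1 CPM with E2 and P4. The groups overlapped narrowly, VCD_Low_E2 lying under VCD_High_PBDE, and the mean of the E2 libraries was the higher at each PBDE level. The log2 fold change was 1.13 (SE 0.20, adjusted p = 0.0140). Intact had 34.9, VCD_Vehicle_NormEnv 36.8 and VCD_E2_ICI 41.5 CPM, all inside the range of the E2 libraries. The call failed without VCD_Vehicle (adjusted p = 0.0588) or VCD_Low_PBDE (0.143), with the lead of the gate doubled (0.0740), with clusters in place of the gate (0.0997) and with the code in the library names as a term (0.138). Its log2 fold change was 0.91 to 1.29 over all settings and libraries left out. VCD_Low_E2_P4 held the highest level, and without it the change was 0.93 (adjusted p = 0.0125). The 6 endothelial markers, a cell type with high Tgfb2, summed to 5.09 to 5.65 CPM in Gdf10 fibroblasts without hormone and 5.87 to 23.1 CPM with it, all detected. The 6 general fibroblast markers summed to 25561 to 29748 CPM without hormone and 20167 to 24359 CPM with it, also without overlap. Of the 6 markers of the Dpp4 subset, the fibroblasts with the highest Tgfb2, 2 were higher with E2, and their sum overlapped (333 to 386 and 340 to 641 CPM). The part of these shifts in the increase was not tested. Tgfbr2 in the same cells was 148 to 177 CPM without hormone and 188 to 301 CPM with E2, without overlap, and did not pass (log2 fold change 0.63, adjusted p = 0.0731).

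**Figure D3:**
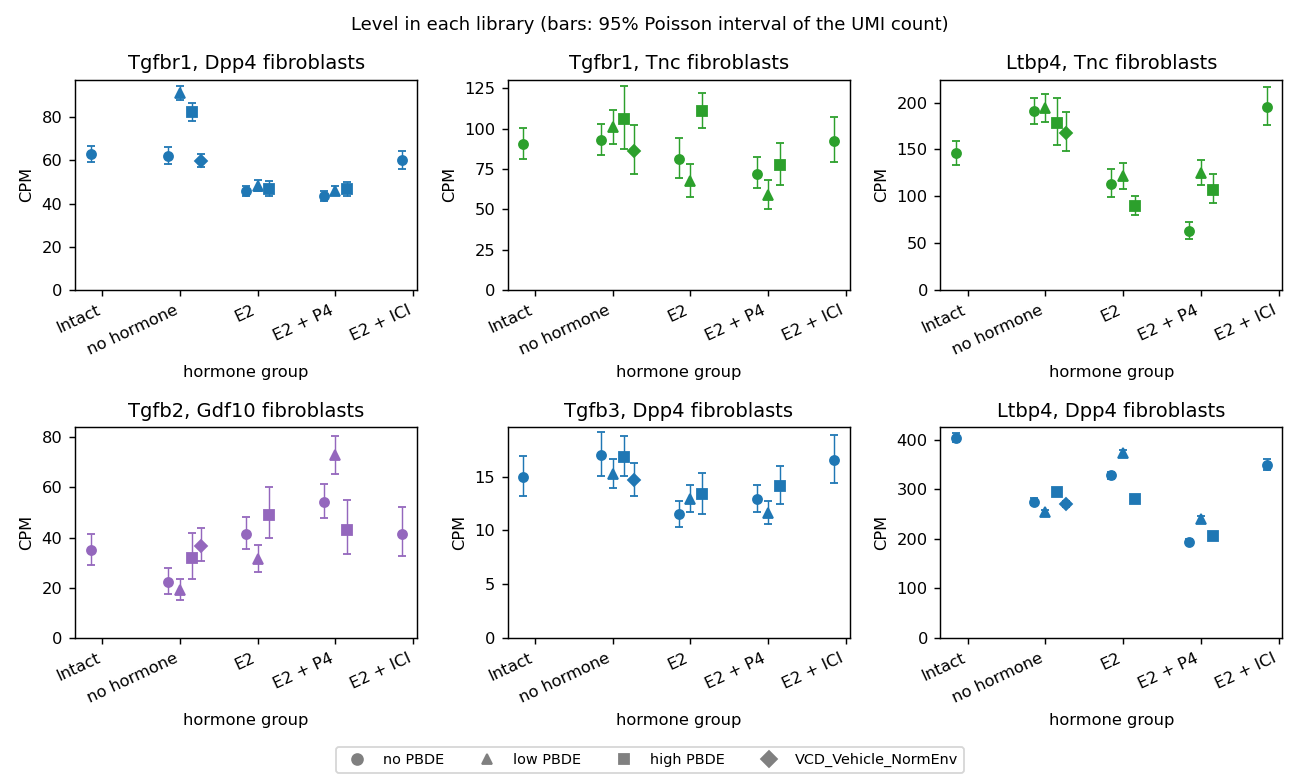
Level in CPM (vertical axis, linear) per library for 6 gene and subset pairs, by hormone group on the horizontal axis, with symbols for PBDE dose and bars for exact 95% Poisson intervals. For Tgfbr1 in Dpp4 fibroblasts and Ltbp4 in Tnc fibroblasts the 6 E2 libraries lie below the 3 without hormone, and VCD_E2_ICI (60.0 and 195 CPM) lies above the E2 libraries.

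The libraries carry one of 2 codes in their names, of unstated meaning. Of the crossed libraries, the first code holds 2 without hormone and 2 with E2, the second 1 and 4. All at no PBDE carry the first code and all at high PBDE the second. At low PBDE the library without hormone carries the first and those with E2 the second. With PBDE in the model, the code as a term thus takes up the hormone difference at low PBDE. The E2 contrast then rests on no and high PBDE. Log2 differences within the first and second code were -0.74 and -0.80 for Tgfbr1 and -0.38 and -0.35 for Tgfb3 in Dpp4 fibroblasts. They were -1.17 and -0.69 for Ltbp4 and -0.34 and -0.46 for Tgfbr1 in Tnc fibroblasts, and 1.17 and 0.55 for Tgfb2 in Gdf10 fibroblasts. For Tgfbr1 and Tgfb3 in Dpp4 and Ltbp4 in Tnc fibroblasts the hormone groups did not overlap, so any split of libraries keeps their direction. Tgfbr1 in Tnc and Tgfb2 in Gdf10 fibroblasts, whose groups overlapped, kept theirs under each code. Libraries under a code also differ in PBDE, so these are values without a test.

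Whether the E2 effect differed between the 4 subsets was tested directly, and 5 of 10 members passed, against 25.7% of all genes. These were Ltbp4 (adjusted p = 0.000181), Tgfb3 (0.000503), Tgfbr2 (0.00990), Tgfb2 (0.0103) and Tgfbr1 (0.0181). For Ltbp4 the change in Tnc fibroblasts was lower than that in Dpp4 fibroblasts by 0.91 on the log2 scale (-0.91), with 0.10 and -0.06 for the Fabp4 and Gdf10 subsets. The change of Tgfb2 was 1.5 greater in Gdf10 and 1.01 greater in Fabp4 than in Dpp4 fibroblasts. That of Tgfbr2 was 0.42, 0.46 and 0.71 greater in Fabp4, Tnc and Gdf10 than in Dpp4 fibroblasts. For Tgfbr1, which fell in Dpp4 fibroblasts, these values were 0.64, 0.29 and 0.37. The change of Tgfb3 was 0.84 greater in Tnc than in Dpp4 fibroblasts, and its log2 fold change in Tnc fibroblasts was 0.41 (adjusted p = 0.0667) where that in Dpp4 fibroblasts was -0.41. Without VCD_Low_PBDE, Tgfbr1 (0.228) and Tgfb2 (0.0865) failed, and without VCD_High_PBDE Tgfbr2 failed (0.0922). With all fibroblasts summed, a comparison added after the values were seen, Tgfbr1 alone of 10 members passed (-0.53, adjusted p = 0.0164, against 18.5% of all genes). Its groups overlapped, at 50.3 to 69.8 CPM without hormone and 40.7 to 54.3 CPM with E2. No other setting and no left-out library was run for this sum. Subset markers moved in it as well, and their part was not tested.

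**Figure D4:**
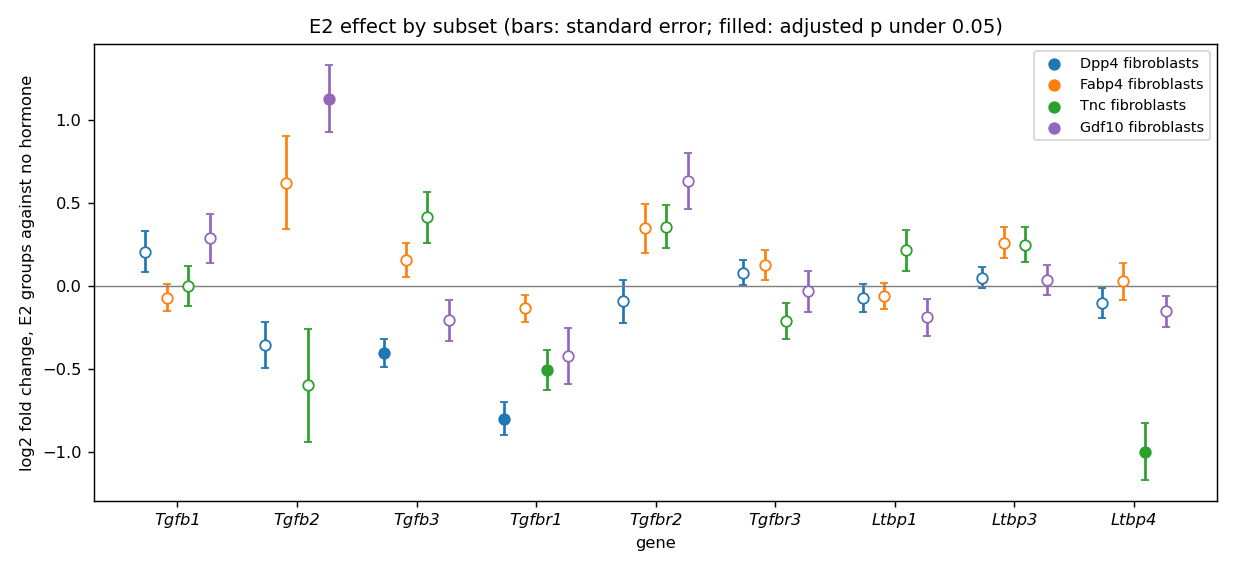
Log2 fold change of each member (E2 libraries against those without hormone) with its SE in the 4 fibroblast subsets, filled symbols marking an adjusted p under 0.05 and Ltbp2 left out for its few UMIs. Filled points are Tgfbr1 and Tgfb3 in Dpp4 (-0.80 and -0.41), Ltbp4 and Tgfbr1 in Tnc (-1.0 and -0.51) and Tgfb2 in Gdf10 fibroblasts (1.13).

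Macrophages, the population with the highest mean Tgfb1 level, held it at 434, 417 and 542 CPM without hormone, 391, 337 and 401 CPM with E2 and 400, 415 and 425 CPM with E2 and P4. The groups overlapped, and the log2 fold change of -0.23 did not pass (adjusted p = 0.489). VCD_E2_ICI had the highest level, 571 CPM, with Intact at 427 and VCD_Vehicle_NormEnv at 492 CPM. Tgfbr1 in macrophages was 44.8 to 65.0 CPM without hormone and 26.0 to 47.9 CPM with E2 (-0.54, adjusted p = 0.295), and Intact lay above all of them at 95.6 CPM. In Dpp4 fibroblasts, Tgfb2 stood at 101 to 132 CPM without hormone and 76.5 to 129 CPM with E2 (-0.36, adjusted p = 0.127), and VCD_E2_ICI was lowest at 71.3 CPM.

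Adding progesterone to estradiol left no member past the threshold in any of the 5 populations by edgeR. The share of all genes that passed was 0% in Dpp4, 0.373% in Fabp4, 4.08% in Tnc and 0.187% in Gdf10 fibroblasts and 0.122% in macrophages. In Dpp4 fibroblasts 2 of 10 members had an unadjusted edgeR p under 0.05 (1330 of 14127 genes) and 1 passed by DESeq2. In Tnc fibroblasts 5 of 9 tested had an unadjusted p under 0.05 (2170 of 11215 genes). In Fabp4 (2595 of 13657 genes) and Gdf10 fibroblasts (952 of 11248) and macrophages (669 of 9046) 1 member each did. By DESeq2 0 members passed in these 4. The DESeq2 call was Ltbp4 in Dpp4 fibroblasts, which held 328, 373 and 281 CPM with E2 and 194, 241 and 207 CPM with E2 and P4 at no, low and high PBDE. The groups did not overlap. The edgeR log2 fold change was -0.53 (SE 0.11, adjusted p = 0.229). Without hormone Ltbp4 in this subset was 253 to 294 CPM (mean 274). This lay above all libraries with E2 and P4 and overlapped those with E2 alone (mean 327). The E2 contrast above takes the mean of both hormone treatments. Intact held the highest Ltbp4 level of this subset, 404 CPM (395 to 414), and VCD_E2_ICI 350.2 CPM. In Gdf10 fibroblasts Ltbp4 was likewise 845 to 915 CPM with E2 and 671 to 824 CPM with P4 added, and did not pass (-0.18, adjusted p = 0.701). Tgfb2 in Tnc fibroblasts was 13.1 to 22.8 CPM with E2 and 6.15 to 11.5 CPM with P4 added, also without overlap, and did not pass (-1.06, adjusted p = 0.185). How many of all genes lack overlap in this way was not counted, here or between the E2 libraries and those without hormone. A lack of overlap without a passed test is therefore given as values only.

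Other genes of the pathway were read as 3 lists. The first holds 14 genes that anchor or activate latent TGF-β. In Dpp4 fibroblasts 2 of 13 tested rose with E2 and 0 fell (median log2 fold change 0.07), in Fabp4 fibroblasts 5 rose and 1 fell (0.33), and in Tnc fibroblasts 6 of 12 rose and 0 fell (0.58). The median of all genes was -0.00, 0.00 and -0.01, and 13.2%, 17.4% and 30.3% of all genes passed in these comparisons, so the Dpp4 count lies near its background. In Gdf10 fibroblasts 0 of 11 passed and in macrophages 0 of 10. Emilin1, an elastic fiber glycoprotein known to hold back TGF-β processing, rose in 3 subsets (0.78, 1.34 and 1.72 in Dpp4, Fabp4 and Tnc fibroblasts). Fbn2, a fibrillin, rose in Fabp4 (2.40) and Tnc fibroblasts (1.38), as did the integrin subunit Itgav (0.70 and 1.46). Itgb8, its partner in activation, rose in Fabp4 fibroblasts (2.05) and Thbs1, an activating thrombospondin, in Dpp4 fibroblasts (0.77). Lrrc32, which tethers latent TGF-β to the cell surface, fell by 0.98 on the log2 scale in Fabp4 fibroblasts.

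Markers moved with E2 in Fabp4 fibroblasts too. Of their own 6 markers 3 were lower and 1 higher, and of the 6 Gdf10 subset markers likewise 3 and 1. Of the 6 Tnc subset markers 2 were higher and 0 lower. The summed general fibroblast markers were 23179 to 24908 CPM without hormone and 19609 to 21571 CPM with it, and the pericyte markers 53.7 to 60.2 and 29.8 to 47.0 CPM. The neutrophil markers were at 29.5 to 63.2 and 2.39 to 27.9 CPM, and those for B cells at 3.16 to 6.64 and 6.72 to 20.6 CPM. All 6 markers of each of these lists were detected, and these 4 sums did not overlap between the groups. The part of these shifts in the changes of the listed genes was not tested.

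The second list holds 18 genes of signal transduction and its feedback. With E2, 1 rose and 4 fell in Dpp4 fibroblasts (median -0.20), 0 rose and 5 fell in Fabp4 fibroblasts (-0.13) and 2 rose and 2 fell in Tnc fibroblasts (-0.10), while 0 of 18 passed in Gdf10 fibroblasts and 0 of 15 in macrophages. Against 13.2%, 17.4% and 30.3% of all genes, the 4 of 18 in Tnc fibroblasts lie below the background. Bambi, a decoy type I receptor, fell by 1.25 in Dpp4 and by 1.16 in Tnc fibroblasts. Ski, a repressor of Smad transcription, fell in 3 subsets (-0.25, -0.39 and -0.50 in Dpp4, Fabp4 and Tnc). Smurf1, a ubiquitin ligase of the pathway, fell by 0.54 in Dpp4 fibroblasts. Smad2 had -0.25 in Dpp4 and 0.64 in Tnc fibroblasts, both past the threshold.

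The third list holds 15 genes induced by TGF-β in fibroblasts. With E2, 5 rose and 3 fell in Dpp4 fibroblasts (median 0.69), 5 rose and 3 fell in Fabp4 (0.23), 8 rose and 3 fell in Tnc (0.67) and 2 rose and 1 fell in Gdf10 fibroblasts (-0.07), with 0 of 9 in macrophages. Of all genes 13.2%, 17.4%, 30.3%, 2.41% and 0.122% passed in these 5 populations. Members of the list went opposite ways. Cthrc1, a secreted collagen regulator, rose in all 4 subsets (2.35, 3.81, 3.51 and 3.05 in Dpp4, Fabp4, Tnc and Gdf10). Tgfbi, a matrix adhesion protein, was lower in all 4 (-0.88, -2.06, -3.32 and -0.98). Fn1, fibronectin, rose in Fabp4 (2.71), Tnc (2.75) and Gdf10 fibroblasts (0.51), and the contractile genes Tagln and Acta2 rose in Tnc fibroblasts (3.25 and 3.27). Nox4 fell by 1.32 in Fabp4 fibroblasts. With P4 added to E2, 0 of 12 anchoring, 2 of 18 signaling and 2 of 15 induced genes passed in Tnc fibroblasts (4.08% of all genes), namely Bambi (-1.26), Tgfbi (-1.33), Pmepa1 (0.55) and Tagln (1.67). In Gdf10 fibroblasts (0.187% of all genes) 1 of 15 induced genes passed, Fn1 (0.73), and in the other 3 populations 0 of these lists by edgeR. Gate markers were called in the same comparisons. In Tnc fibroblasts 1 of their own 6 markers was higher and 2 were lower, with 2 Gdf10, 1 Dpp4 and 1 Fabp4 subset markers lower. In Gdf10 fibroblasts 1 Dpp4 subset marker was higher. Their part in these changes was not tested.

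The same lists were compared between subsets, where 68.3% of all genes passed in Dpp4, 55.1% in Fabp4, 58.2% in Tnc and 50.6% in Gdf10 fibroblasts. Counts such as 8 of 14 anchoring genes in Fabp4 and 10 of 18 signaling genes in Tnc fibroblasts are near those shares. In Dpp4 fibroblasts 6 of 14 anchoring genes were higher and 8 lower, 11 of 18 signaling genes higher and 4 lower, and 2 of 15 induced genes higher and 9 lower. Higher there were the fibrillin Fbn1 (1.85) and the feedback genes Smurf2 (1.79), Smurf1 (1.19), Smad7 (1.10) and Skil (1.00). Of the induced genes Nox4 (2.10) and Fn1 (2.09) were higher, while Acta2 (-2.11) and Tgfbi (-2.0) were lower. Tnc fibroblasts had 10 of 15 induced genes higher and 1 lower, led by Cthrc1 (2.96) and Tagln (2.83). Of the anchoring genes 6 were higher, with Fbn2 (4.74), Itgb8 (2.70) and Thbs1 (1.78) among them, and 3 were lower. Of the signaling genes 2 were higher and 8 lower. In Fabp4 fibroblasts 6 anchoring genes were higher and 2 lower, 2 signaling genes (Smad3 at 0.75 among them) higher and 10 lower, and 4 induced genes higher and 6 lower. In Gdf10 fibroblasts 1 anchoring gene was higher (Lrrc32, 0.59) and 10 lower, 8 signaling genes higher and 5 lower, and 4 induced genes higher and 6 lower, with Tgfbi at 2.15 and Fbn2 at -3.79.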

How the data were processed

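The authors aligned Chromium 3′ v3 reads to mm10 with Cell Ranger 3.1.0 and deposited unnormalized UMI counts per gene and barcode, 1 matrix for each of 12 libraries. Members and gene lists were chosen with earlier results of these data known. Cells were kept at 500 genes, 1000 UMIs and at most 5% mitochondrial counts. A type gate used the mean scaled level of 6 markers, with 3 detected and a lead of 0.15 over the next type, and the subset gate a lead of 0.1. 1339 cells lay within 0.05 of the first limit and 4979 of the second. Doublets were kept, and their removal was an alternative. The UMI counts were summed per library and population and tested with edgeR 4.0.16 (quasi-likelihood, TMM, filterByExpr, Benjamini-Hochberg over all genes tested, threshold 0.05) in R 4.3.3. E2 and P4 contrasts used 9 libraries with PBDE as an additive term, and subset contrasts 12 libraries with library as a block. Each SE is the absolute log2 fold change over the square root of the test's F statistic, so it restates the test. DESeq2 1.42.0 was an alternative. All 10 members were named, other genes only from the lists, at most 6 per list and comparison, with 3 like genes per ligand. Scripts were tested on simulated counts with planted changes. In the E2 test, planted changes of 1 on the log2 scale were recovered for 69.7% of genes in Dpp4 fibroblasts, 70.4% in Tnc fibroblasts and 57% in macrophages. Of the calls in these simulations 5.92%, 10% and 5% were false. Library totals were 41737881 to 109224969 UMIs. Each treatment has 1 library, so p-values measure the spread between libraries that also differ in PBDE dose.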

Additional observations from a re-analysis of the deposited data

Results flagged for a closer look

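The E2 effect on 5 members differed between the 4 fibroblast subsets in the edgeR interaction test over the 9 crossed libraries: Tgfb2 (adjusted p = 0.0103), Tgfbr1 (0.0181), Ltbp4 (0.000181), Tgfbr2 (0.00990) and Tgfb3 (0.000503), against 25.7% of all genes. Tgfb3 and Ltbp4 stayed past the threshold without each library in turn, at adjusted p values of up to 0.00935 and 0.00884. Tgfb2 and Tgfbr1 failed without VCD_Low_PBDE (0.0865 and 0.228), and Tgfbr2 without VCD_High_PBDE (0.0922). The log2 fold change of Tgfb3 was -0.41 in Dpp4 and 0.41 in Tnc fibroblasts, where that in Tnc fibroblasts did not pass by itself (adjusted p = 0.0667). Gate markers of the subsets moved with the same hormone groups, and their part in these differences was not tested.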

How the results depend on the processing

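The number of members past the threshold moved as follows. For E2 in Dpp4 fibroblasts it was 1 with the library code as a term in place of 2, and 1 to 3 with a library left out. For E2 in Fabp4 fibroblasts it was 1 with clusters in place of the gate (Tgfbr2) and 1 with VCD_Vehicle_NormEnv added (Ltbp3) in place of 0, and 0 to 1 with a library left out. For E2 in Tnc fibroblasts it was 4 with clusters, 4 with VCD_Vehicle_NormEnv added and 1 with the code, in place of 2, and 1 to 3 with a library left out. For E2 in Gdf10 fibroblasts it was 2 with DESeq2, 2 with no filter on low counts, 0 with the lead of the gate doubled and 0 with the code, in place of 1, and 0 to 2 with a library left out. For P4 in place of 0 it was 1 with DESeq2 in Dpp4 fibroblasts, 1 with no filter and 2 with clusters in Tnc fibroblasts (0 to 1 with a library left out) and 1 with no filter in Gdf10 fibroblasts. For the difference of the E2 effect between subsets it was 3 to 5 with a library left out, in place of 5. Subset counts with a library left out were 9 (Dpp4), 8 to 9 (Fabp4), 8 to 10 (Tnc) and 8 (Gdf10). The cause of these moves was not tested.

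Clusters in place of the gate reversed 3 values: Tgfb1, E2 groups against no hormone, Tnc fibroblasts (0.32 in place of -0.00), Nrros, Fabp4 fibroblasts against the other 3 subsets (-0.72 in place of 1.20) and Itgb6, Gdf10 fibroblasts against the other 3 subsets (0.040 in place of -3.77). A value counted as reversed if its sign changed and it passed the threshold before or after the change of setting. Other changes of sign were not counted, and interaction values have no sign. Of the remaining values of named genes under other settings, 2283 kept their side of the threshold, 78 lost their call and 16 gained one. With a library left out these counts were 2676, 179 and 10. With clusters, Ltbp2 was not tested between subsets or in the hormone comparisons of Fabp4 fibroblasts. The library code could not be fitted in the comparisons of subsets. Of the neighboring levels 17 pairs passed with each pseudocount, and 25 of 98 with clusters. No paired analysis was possible between replicates of treatment groups because each group holds 1 library, and the library blocks and paired tests above join populations of 1 library. Depth limits Ltbp2, with 857 UMIs, and the populations of few cells, for most of which only pooled levels are given.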
